A study of Mus musculus with 12 samples.

Results

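Voltage-gated calcium and sodium channel genes were followed across the hippocampus of young and aged mice in 2 kinds of housing. The set holds every gene whose symbol marks a calcium channel α1 or α2δ subunit (Cacna1, Cacna2d), a calcium channel β subunit (Cacnb1 to Cacnb4), a member of the γ family (Cacng1 to Cacng8) or a sodium channel α or β subunit (Scn followed by a number and a or b). These are 39 of 23361 gene names, 10 for Cav α1, 4 for Cav α2δ, 4 for Cav β, 8 for the γ family, 9 for Nav α and 4 for Nav β. Scn2a1, the gene of another brain sodium channel α subunit, falls outside the set because its symbol ends in a number, and its level is given beside theirs.

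Voltage-gated sodium channels open when a neuron depolarises and carry the upstroke of the action potential. Their large α subunit forms the pore, while β subunits are small membrane proteins that adjust gating and anchor the channel. Voltage-gated calcium channels turn depolarisation into calcium entry, which drives transmitter release, burst firing and gene expression, and their α1 pore is carried to the membrane by α2δ and cytoplasmic β subunits. Most members of the γ family are known as TARPs, which carry AMPA-type glutamate receptors to the synapse, although the family was named after a calcium channel subunit of muscle.

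All mice were male, wild type and of C57Bl/6J background (C57/BL6 in the labels), with no transgene named. The 4 groups were aged mice (14 to 17 months) and young mice (5 to 6 months), each in an enriched environment (EE) or standard housing (SH). Each group had 3 SAGE-Seq libraries, with 1 hippocampus of 1 animal per library. The ages are those of the labels, and the paper gives its ages for the start of the experiments. By the paper, all animals were trained in a Morris water maze before and after weeks in their housing. They were killed weeks after the last test. SAGE-Seq is designed to count a transcript by 1 short tag next to its last NlaIII site (CATG) before the poly(A) tail. By design a longer transcript does not give more tags. Levels are given as RPM, the reads of a gene per 1000000 reads of its library, with library totals scaled by edgeR's TMM method.

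Total reads ran from 6928727 to 16035089 per library, and without molecular identifiers they are not independent molecules. The barcoded libraries were pooled and sequenced on the same slide, and the labels name no batch. The 9 marker genes of dentate granule cells were all measured in every group, with mean log2 values of 6.71 to 8.09 per library. A few libraries stood apart in other markers. The mean log2 value of 6 dorsal minus that of 12 ventral hippocampus markers was 2.07 to 2.32 in 4 libraries (the first and the last of aged EE and of young SH, numbered 1 and 3), against -0.75 to 0.12 in the other 8. Not every marker of the 2 lists went this way. The dorsal marker Nov was lower in the 4, at 11.3 to 43.8 RPM against 47.8 to 114 RPM. The ventral marker Nts was not lower, at 8.24 to 13.3 RPM against 4.51 to 11.3 RPM, and the dorsal marker Wfs1 overlapped. Choroid plexus markers stood at 8.92 in aged EE library 3 against 4.36 to 5.41 elsewhere, and blood markers at 12.38 in young SH library 3. In whole tissue, fewer cells of a type and less RNA per cell cannot be told apart.

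The site that was counted matters for these genes, because a row of the table that lacks the true 3′ end holds the wrong tag or none. The last NlaIII site of each row was therefore read from the mouse genome (NCBI37/mm9) along GENCODE vM1 gene models, cut at the end of the row. All 39 rows held such a site, and each of the 39 tags of 27 bases was found in the coding transcripts of 1 gene only. The tags of the 5 genes whose comparisons are described most fully below are shown 5′ to 3′ as the stretch that identifies each transcript, with the NlaIII site in capitals, and all lie in the 3′ UTR.
Cacng3: CATGtaataagcactcgtgttattaaa
Cacng5: CATGaggggatgggagaatgtatcaac
Cacna1h: CATGcaataagacgtcacagtcccaac
Scn4b: CATGcccagcgcttgcgtctaagcaca
Cacna1g: CATGtaacttattttctcctttaacct
They stand at chr7:129912861-129912887 on the plus strand (Cacng3), chr11:107736038-107736064 on the minus strand (Cacng5), chr17:25511431-25511457 on the minus strand (Cacna1h), chr9:44962112-44962138 on the plus strand (Scn4b) and chr11:94269858-94269884 on the minus strand (Cacna1g). These tags were predicted from the genome and not read from the libraries. Cacnb1 rows that end at the same 3′ base held 2519 and 2452 reads. Not all reads of a row can therefore be assigned to its predicted tag.

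All 39 genes had reads in at least 1 library, and 30 passed the filter on low counts and were tested. Of the 30, 9 had a mean over the 12 libraries of 100 RPM or more. The other 9 genes had 1 to 63 reads in all 12 libraries together, at means of 0.00827 to 0.579 RPM. They include the pores best known from skeletal muscle (Cacna1s, 8 reads; Scn4a, 24 reads), from the retina (Cacna1f, 4 reads; with Cacna2d4, 63 reads) and from sensory neurons (Scn10a, 6 reads; Scn11a, 4 reads), and the γ genes Cacng1 (6 reads), Cacng6 (1 read) and Cacng8 (46 reads).

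Cacng8 encodes a TARP known for its abundance in the hippocampus. Its row spans 775 bases of transcript and its gene model held 1 NlaIII site, 562 bases before the row's end, and no level is read here from its low count. The rows of Cacng4, Cacng6 and Cacng7 end at the stop codon, and for Cacng4 and Cacng7 the gene model ran on for 2423 and 1273 bases. The models of Cacng2, Cacna1b, Cacnb1 and Cacnb2 also ran past their rows, by 1875, 2488, 3417 and 975 bases. Levels of these genes are those of the tags inside the row.

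**Figure D1:**
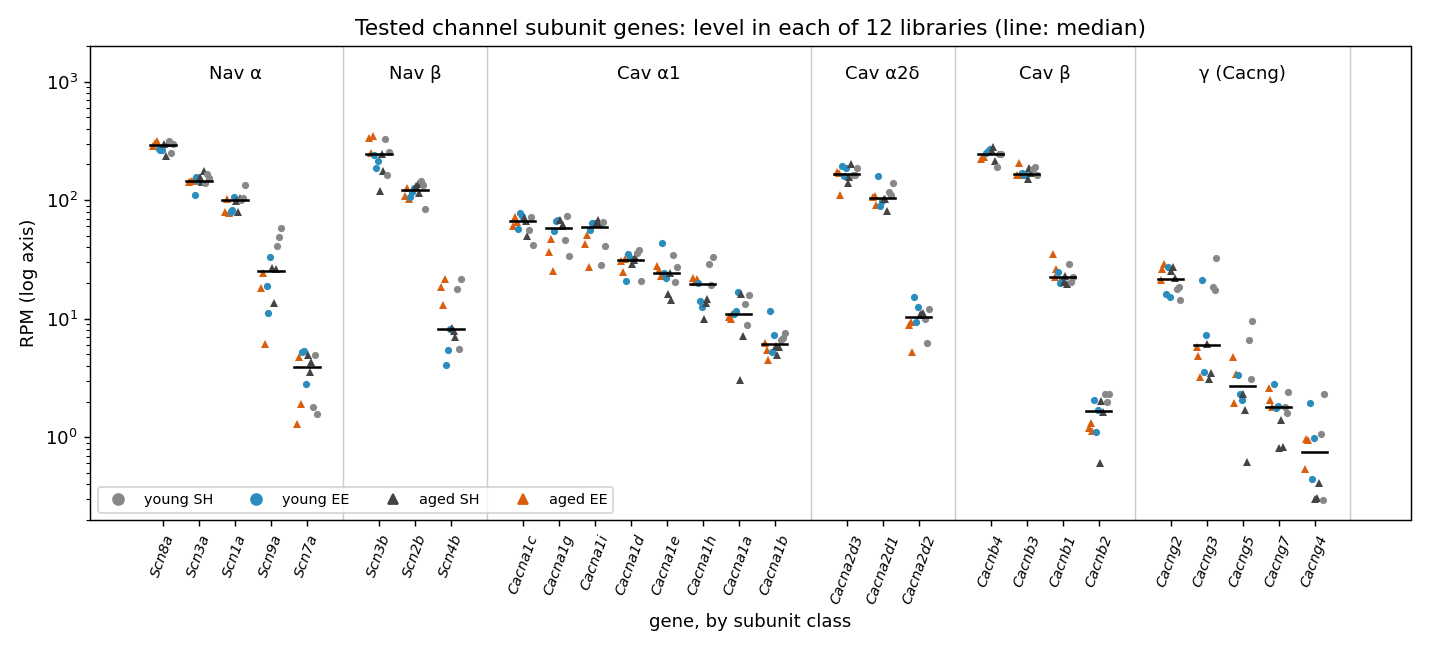
Level of tested channel genes in each of the 12 libraries, in RPM on a log axis, grouped by subunit class and ordered by mean level, with circles for young and triangles for aged mice, colours for the 4 groups and a line at the median. Scn8a, Cacnb4 and Scn3b have means of 284, 242 and 238 RPM, and Scn9a, Scn4b and Cacng3 spread far more between libraries than Scn8a, Cacnb4 or Cacnb3.

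Among the sodium channel pores, Scn8a, which encodes the channel of axon initial segments and nodes of Ranvier, stood highest. It was measured at 287, 301 and 316 RPM in aged EE, 296, 237 and 305 RPM in aged SH, 271, 266 and 266 RPM in young EE and 315, 252 and 298 RPM in young SH (libraries 1, 2 and 3 of each group, as in all lists below). The mean was 284 ± 25.5 RPM (SD, n = 12), 50.8% of the reads of the 9 Nav α genes, and no group stood apart from all others. Scn3a, known in rodents chiefly from the embryonic brain, followed at 148 ± 16.1 RPM, and Scn1a, a channel on which fast-spiking interneurons depend, at 96.0 ± 16.8 RPM. This order held in all 12 libraries. Scn9a, known best from pain-sensing neurons, was at 27.2 ± 15.7 RPM, with a spread over libraries of 57.8% of its mean against 8.98% for Scn8a. Scn7a, a channel-like protein that senses sodium, was at 3.53 ± 1.57 RPM. Scn2a1, which is not part of the set, was measured at 345 ± 39.0 RPM, a higher mean than that of Scn8a.

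Of the sodium channel β genes, Scn3b was at 238 ± 71.2 RPM (SD, n = 12) and Scn2b at 120 ± 17.3 RPM, below Scn3b in 11 of 12 libraries. Scn4b, a β subunit linked to resurgent sodium current, stood far below at 11.6 ± 6.57 RPM, and its range did not overlap that of Scn2b.

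The calcium channel pores were more evenly expressed than the sodium channel pores. Cacna1c, the main L-type channel of the brain, had the highest mean at 63.5 ± 10.7 RPM (SD, n = 12) and 24.2% of the reads of its class. It was at 60.9, 71.5 and 66.0 RPM in aged EE, 70.8, 66.4 and 50.2 RPM in aged SH, 56.5, 77.7 and 72.8 RPM in young EE and 56.0, 71.4 and 41.6 RPM in young SH, and the groups overlapped. The T-type channels Cacna1g and Cacna1i, which open at low voltage and drive burst firing, followed at 53.6 ± 15.7 and 52.7 ± 14.5 RPM. These 2 could not be ordered, since Cacna1g was above Cacna1i in 5 of 12 libraries. Cacna1d, another L-type channel, was at 30.3 ± 5.62 RPM, Cacna1e, the R-type channel, at 25.2 ± 7.80 RPM and Cacna1h, the remaining T-type channel, at 19.2 ± 6.89 RPM. Cacna1a and Cacna1b, the P/Q-type and N-type channels of presynaptic terminals, were at 11.2 ± 3.96 and 6.49 ± 1.86 RPM. No neighbours in this order were ranked alike in all 12 libraries.

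Of the auxiliary calcium channel genes, Cacna2d3 and Cacna2d1 held 58.3% and 38.0% of the reads of the α2δ class, at 167 ± 24.8 and 109 ± 22.1 RPM (SD, n = 12). Cacna2d3 was at 174, 169 and 111 RPM in aged EE, 139, 156 and 203 RPM in aged SH, 192, 161 and 185 RPM in young EE and 162, 164 and 187 RPM in young SH, with all groups overlapping. Cacna2d1 and Cacna2d2 are the binding sites of gabapentin, and Cacna2d2 stood at 10.1 ± 2.67 RPM. Cacnb4, the gene mutated in the lethargic mouse, and Cacnb3 were the main β genes, at 242 ± 24.8 and 172 ± 15.2 RPM. Cacnb4 was at 221, 229 and 233 RPM in aged EE, 260, 279 and 215 RPM in aged SH, 251, 258 and 271 RPM in young EE and 192, 247 and 245 RPM in young SH, where each young EE library was above each aged EE library. The spread of Cacnb4 and Cacnb3 over the 12 libraries, 10.3% and 8.84% of the mean, was among the smallest of the set. Cacnb1 was at 23.7 ± 4.49 RPM and Cacnb2 at 1.61 ± 0.541 RPM.

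In the γ family, Cacng2, the TARP stargazin, was the highest at 21.6 ± 5.23 RPM (SD, n = 12). Cacng3, a close relative of stargazin, was at 10.6 ± 9.54 RPM, with the widest spread of the 30 genes at 90.2% of its mean. The more distant TARP genes Cacng5 and Cacng7 were at 3.47 ± 2.46 and 1.81 ± 0.622 RPM, and Cacng4 at 0.875 ± 0.656 RPM. Division of RPM by the length of the row left the gene in first place in 5 of the 6 classes. In the Cav β class Cacnb3 then stood at 60.9 RPM per kilobase and Cacnb4 at 30.7. Since SAGE-Seq is designed to give 1 tag per transcript whatever its length, this division is not taken to correct a level. In RPM Cacnb4 was above Cacnb3 in all 12 libraries.

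Age was compared first in standard housing, as aged SH against young SH. In a limma fit of all 12 libraries, 3 of 30 channel genes passed a Benjamini-Hochberg adjusted p of 0.1, all lower in aged SH, beside 2.81% of the 13138 genes tested, 369 genes. They are the TARP genes Cacng3 and Cacng5 and the T-type channel gene Cacna1h. At an unadjusted p under 0.05, 6 of the 30 genes differed, beside 19.3% of all genes, a share near that background. Of these, 5 were lower, beside 10.5% of all genes, and 1 was higher, beside 8.76%. The libraries of the groups did not overlap in 7 genes that were lower, beside 13.5% of all genes, and in 1 that was higher, beside 11.2%. A log2 fold change is positive where the group named first was higher. It was fitted to reads at a common library size plus 2, which shrinks the fold of low genes, and is given with its standard error (SE). The p-values rest on the spread between animals within groups, pooled over the 4 groups of 3 animals and moderated over all genes tested. Comparisons that have a group in common also share its libraries.

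Cacng3 (chr7:129815258-129912907, plus strand) was measured at 18.5, 17.5 and 32.6 RPM in young SH libraries 1, 2 and 3 and at 6.13, 3.09 and 3.48 RPM in aged SH. The lowest young SH library stood well above the highest aged SH library. The fall was 5.17-fold, with a log2 fold change of -2.37 (SE 0.53, limma adjusted p = 0.0834). In EE mice Cacng3 was at 21.1, 3.55 and 7.33 RPM in young and 5.76, 4.83 and 3.21 RPM in aged libraries, so that young EE library 1 was as high as young SH and the other libraries were low. The log2 fold change in EE was -0.85 (SE 0.53, limma adjusted p = 0.685) and the groups overlapped.

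Cacna1h (chr17:25511232-25570728, minus strand) was measured at 29.1, 19.3 and 33.3 RPM in young SH and at 9.84, 13.6 and 14.7 RPM in aged SH. All 3 aged SH libraries lay below the young SH libraries, of which library 2 was the lowest. The fall was 2.10-fold, with a log2 fold change of -1.07 (SE 0.25, limma adjusted p = 0.0863). In EE, young libraries were at 20.03, 14.0 and 12.6 RPM and aged libraries at 21.9, 20.4 and 21.7 RPM, with the aged above the young and a log2 fold change of 0.48 (SE 0.25, limma adjusted p = 0.646).

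Cacng5 (chr11:107735919-107776369, minus strand) was measured at 6.55, 3.07 and 9.54 RPM in young SH and at 2.31, 1.70 and 0.614 RPM in aged SH. The groups did not overlap, although aged SH library 3 held 3 reads and young SH library 2 lay near the aged libraries. The fall was 3.75-fold, with a log2 fold change of -1.91 (SE 0.50, limma adjusted p = 0.0953). Young EE libraries were at 3.35, 2.33 and 2.08 RPM and aged EE libraries at 4.78, 1.93 and 3.40 RPM, which overlap.

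These 3 calls depended on single libraries. All 3 were lost when any 1 of the SH libraries other than young SH library 2 was left out, and also without any 1 aged EE library or young EE library 3, with Cacng3 at -2.08 to -2.65, Cacna1h at -0.89 to -1.28 and Cacng5 at -1.44 to -2.32 over the 12 such fits. Markers of other cells were measured in the same contrast. Summed over the list as a mean log2 value, blood markers stood at 8.95 to 9.62 in aged SH and 10.43 to 12.38 in young SH, with 2 of 5 past the threshold and none of the 5 without reads. Dentate granule markers stood at 6.71 to 7.08 in aged SH and 6.92 to 8.09 in young SH, with 8 of 9 lower in aged SH and 0 past the threshold. Of 11 oligodendrocyte markers 10 were lower, with 0 past the threshold, and of 8 microglia markers 6, with 1 past it. The 8 interneuron markers stood 4 higher and 4 lower with a median of 0.08, and 1 of the lower ones passed. Of the lower ones, Npy was at 36.1, 38.3 and 62.2 RPM in young SH and 4.72, 3.24 and 2.46 RPM in aged SH. Gad1 was at 338, 281 and 366 RPM against 160, 155 and 155 RPM. In young EE, Npy was at 43.8, 1.55 and 6.23 RPM and Gad1 at 389, 124 and 221 RPM, highest in library 1, as was Cacng3. Of the other interneuron markers tested, Gad2, Vip and Reln were also highest in young EE library 1. Slc32a1 and Cck were lowest in that library, and Lhx6 lay between its values in the other young EE libraries. The interneuron markers as a list therefore did not follow Cacng3 in young EE. The part of these cells in the falls was not tested. With the dorsal minus ventral value as a covariate, the log2 fold change was -2.31 (SE 0.62, limma adjusted p = 0.185) for Cacng3, -0.87 (SE 0.26, limma adjusted p = 0.212) for Cacna1h and -1.30 (SE 0.43, limma adjusted p = 0.234) for Cacng5, and 0 of all genes passed in that fit, against 1816 with an unadjusted p under 0.05. edgeR's quasi-likelihood test and DESeq2 on the recovered reads each called the same 3 channel genes, beside 2.69% and 8.72% of all genes. Without young SH library 2, 5 channel genes passed, 4 lower and 1 higher, beside 8.72% of the genes in that fit.

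Other channel genes of this contrast did not pass. Scn9a was at 40.7, 49.0 and 58.7 RPM in young SH and 26.5, 13.6 and 26.2 RPM in aged SH, with a log2 fold change of -1.20 (SE 0.50, limma adjusted p = 0.222). Cacng7 was at 1.80, 1.59 and 2.41 RPM in young SH and 0.803, 1.39 and 0.819 RPM in aged SH, from 4 to 20 reads per library. Both were lower in every aged SH library than in any young SH library. Cacng2 had the opposite sign, at 17.9, 18.3 and 14.5 RPM in young SH and 25.0, 27.3 and 21.9 RPM in aged SH, without overlap and with a log2 fold change of 0.55 (SE 0.24, limma adjusted p = 0.238). Scn8a, the most abundant pore of the set, had a log2 fold change of -0.05 (SE 0.14). Over the 30 genes the median log2 fold change was -0.22, beside -0.01 over all genes tested.

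**Figure D2:**
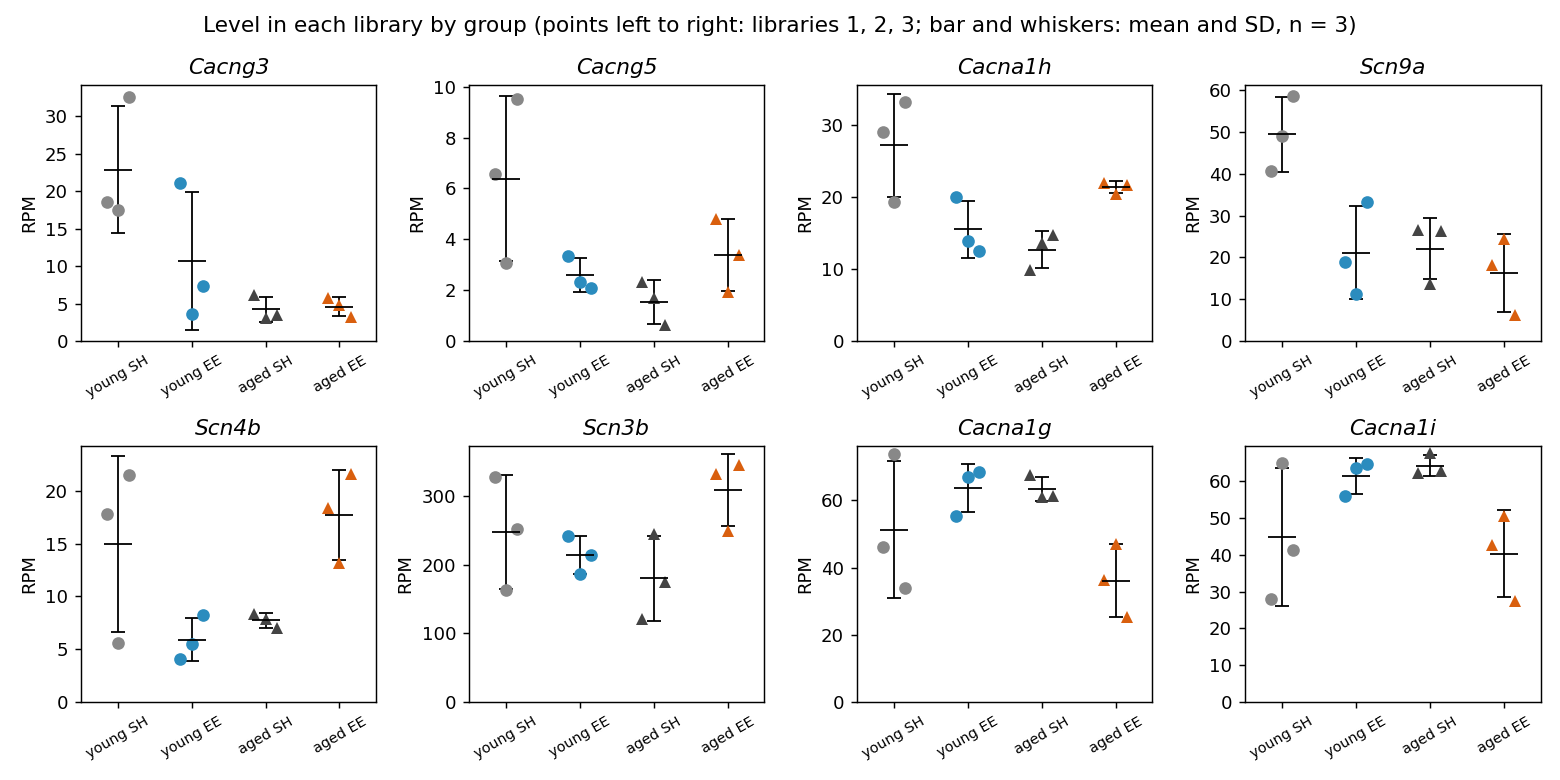
Level of 8 channel genes in RPM in each library by group, with circles for young and triangles for aged mice, and bars and whiskers for mean and SD of 3 libraries. Cacng3, Cacng5 and Cacna1h are lower in all 3 aged SH libraries than in young SH, and Scn4b, Cacna1g and Cacna1i split the young SH libraries, with library 2 apart from libraries 1 and 3.

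The next comparison set aged against young mice within enriched housing. For aged EE against young EE, 0 of 30 channel genes and 0% of all genes passed, and 4 of 30 had an unadjusted p under 0.05, beside 7.88% of all genes. The groups did not overlap in 4 genes that were higher, beside 8.35% of all genes, and 4 that were lower, beside 8.19%. DESeq2 called 1 channel gene, Scn4b (1.60, SE 0.45, adjusted p = 0.0900), beside 0.373% of all genes, and edgeR's quasi-likelihood test called 0. Scn4b was at 4.10, 5.43 and 8.18 RPM in young EE and 18.4, 13.2 and 21.6 RPM in aged EE. Every aged EE library exceeded every young EE library, with a log2 fold change of 1.57 (SE 0.43, limma adjusted p = 0.627). Cacna1g was at 55.4, 67.1 and 68.4 RPM in young EE and 36.2, 47.0 and 25.1 RPM in aged EE, again without overlap, with a log2 fold change of -0.85 (SE 0.28, limma adjusted p = 0.627). Cacna2d2 was at 15.2, 9.42 and 12.46 RPM in young EE and 8.80, 9.30 and 5.20 RPM in aged EE, and its groups did not overlap (-0.67, SE 0.29, limma adjusted p = 0.627).

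Averaged over both housings, 0 of 30 genes and 0% of all genes passed for age, with 4 of 30 under an unadjusted p of 0.05 beside 16.2% of all genes. edgeR's quasi-likelihood test called 0 and its likelihood ratio test 1, beside 6.9% of all genes for the latter. The aged EE values of Cacng2 were 21.1, 26.2 and 29.0 RPM and its young EE values 16.02, 27.3 and 15.1 RPM, which overlap. Those of Scn9a were 18.1, 24.4 and 6.14 RPM in aged EE and 19.002, 11.2 and 33.3 RPM in young EE, with aged EE library 3 the lowest of all 12. For age, Cacng3 had a log2 fold change of -1.61 (SE 0.37, limma adjusted p = 0.166), Cacng2 of 0.48 (SE 0.17, limma adjusted p = 0.206) and Scn9a of -0.83 (SE 0.35, limma adjusted p = 0.280). DESeq2 called Cacng3 in this average, at -1.81 (SE 0.40, adjusted p = 0.00177), beside 7.73% of all genes.

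Housing was then compared within each age. For aged EE against aged SH, 0 of 30 channel genes passed, beside 0.00761% of all genes, which is 1 gene. At an unadjusted p under 0.05 stood 6 of 30, beside 8.87% of all genes. The groups did not overlap in 5 genes that were higher in aged EE, beside 8.65% of all genes, and 4 that were lower, beside 8.57%, and DESeq2 and edgeR's quasi-likelihood test also called 0, DESeq2 beside 0.769% of all genes. Scn4b was at 18.4, 13.2 and 21.6 RPM in aged EE and 8.34, 7.88 and 6.96 RPM in aged SH. All aged EE libraries were above all aged SH libraries, at a log2 fold change of 1.15 (SE 0.43, limma adjusted p = 0.525). Scn3b, at 333, 249 and 345 RPM against 120, 245 and 175 RPM, was higher by 0.82 (SE 0.29, limma adjusted p = 0.522), with aged SH library 2 just below the lowest aged EE library. Cacna1h had a log2 fold change of 0.76 (SE 0.25, limma adjusted p = 0.522) with its 3 aged EE libraries within 20.4 to 21.9 RPM. Cacng7, at 2.61, 2.05 and 1.80 RPM in aged EE and 0.803, 1.39 and 0.819 RPM in aged SH, had one of 0.96 (SE 0.31, limma adjusted p = 0.522), without overlap and on few reads.

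The other T-type channels stood on the opposite side. Cacna1g was at 36.2, 47.0 and 25.1 RPM in aged EE and 67.5, 61.0 and 61.4 RPM in aged SH, a log2 fold change of -0.85 (SE 0.28, limma adjusted p = 0.522). Cacna1i was at 42.7, 50.7 and 27.5 RPM in aged EE and 62.4, 67.6 and 62.9 RPM in aged SH, a log2 fold change of -0.71 (SE 0.28, limma adjusted p = 0.529). For both genes the 3 aged SH libraries lay close together and above every aged EE library. Over the 30 genes the median was -0.01, beside 0.03 over all genes.

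For young EE against young SH, 0 of 30 genes and 0% of all genes passed, and 5 of 30 had an unadjusted p under 0.05, beside 9.61% of all genes. All 5 were lower in EE, beside 4.41% of all genes. The groups did not overlap in 1 gene that was higher, beside 6.84%, and 1 that was lower, beside 6.05%. DESeq2 and edgeR's quasi-likelihood test called 0 channel genes too, DESeq2 beside 0.883% of all genes. Markers of other cells stood apart in this contrast as well. All 5 blood markers were lower in EE at an unadjusted p under 0.05, with a median log2 fold change of -1.64 and mean log2 values of 8.64 to 9.95 in young EE against 10.43 to 12.38 in young SH. All 11 oligodendrocyte markers had lower values in EE, 4 of them at an unadjusted p under 0.05, and 11 of 12 ventral markers had higher values. The part of these cells in the values of the channel genes was not tested. Scn9a, at 19.002, 11.2 and 33.3 RPM in young EE and 40.7, 49.0 and 58.7 RPM in young SH, was the 1 of the 5 without overlap between groups, with a log2 fold change of -1.34 (SE 0.50, limma adjusted p = 0.441). Cacna1h had a log2 fold change of -0.79 (SE 0.25, limma adjusted p = 0.417) and Scn4b of -1.15 (SE 0.43, limma adjusted p = 0.449). Scn4b was at 17.9, 5.55 and 21.5 RPM in young SH and 4.10, 5.43 and 8.18 RPM in young EE. In both genes young SH library 2 fell among the young EE libraries. Without that library Scn4b passed, at -1.74 (SE 0.30, limma adjusted p = 0.0820), the 1 channel gene to do so beside 0.643% of the genes in that fit, and 1 channel gene passed without young EE library 1, beside 2.22%.

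Averaged over both ages, 0 of 30 genes and 0% of all genes passed for housing, with 2 of 30 under an unadjusted p of 0.05 beside 6.27% of all genes and 0 called by DESeq2 or edgeR's quasi-likelihood test, DESeq2 beside 0.0152% of all genes. The smallest p belonged to Scn9a at -0.96 (SE 0.35) and Cacng7 at 0.54 (SE 0.22), each with a limma adjusted p of 0.785. For both genes the EE and SH libraries overlapped over the 2 ages.

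**Figure D3:**
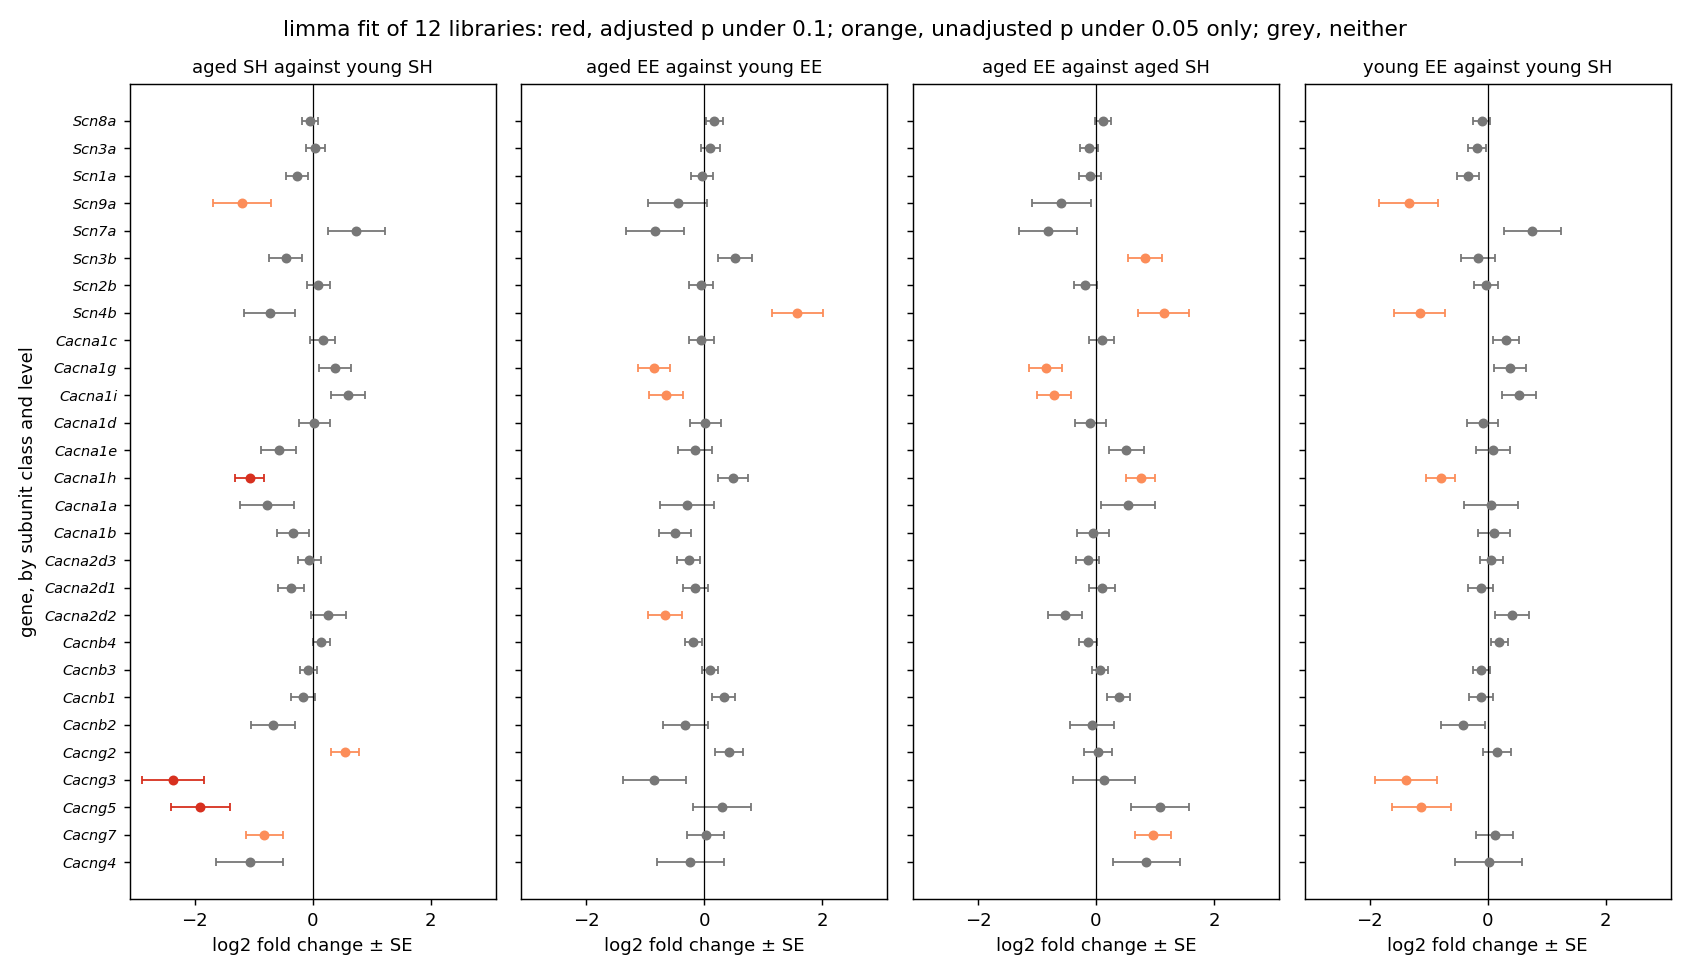
Log2 fold change of tested channel genes with its standard error in the 4 pairwise comparisons of the limma fit, in subunit classes from Scn8a at the top to Cacng4 at the bottom. Cacng3, Cacna1h and Cacng5 in aged SH against young SH are the 3 points past the adjusted threshold, drawn in red, and points with an unadjusted p under 0.05 only are orange.

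The difference between the housing effects at the 2 ages (housing by age) left 0 of 30 channel genes and 0% of all genes past the threshold with limma. Unadjusted, 8 of 30 stood under 0.05, beside 12.1% of all genes. DESeq2 called 3 channel genes (Cacna1h, Scn4b and Cacng5), beside 2.29% of all genes, edgeR's likelihood ratio test 2, beside 1.34%, and its quasi-likelihood test 0. Cacna1h had an interaction of 1.55 (SE 0.35, limma adjusted p = 0.255), Scn4b of 2.30 (SE 0.61, limma adjusted p = 0.255) and Cacng5 of 2.20 (SE 0.70, limma adjusted p = 0.288), each with a more positive effect of EE in aged than in young mice. Without young SH library 2, 5 channel genes passed, 3 of them positive, beside 2.44% of the genes in that fit, and without young EE library 1, 1 passed, beside 0.323%. Cacna1g, at -1.23 (SE 0.39), and Cacna1i, at -1.25 (SE 0.40), had the opposite sign, each with a limma adjusted p of 0.288.

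These genes followed the 4 libraries that stood apart in the dorsal minus ventral value. The same 4 also stood highest in other marker lists. Dentate granule markers were at 7.70 to 8.09 in them and 6.71 to 7.57 in the other 8. Oligodendrocyte markers were at 9.83 to 10.27 and 8.78 to 9.54, and microglia markers at 7.35 to 7.72 and 6.79 to 7.31. The part of each in the channel gene values was not tested, and they cannot be told apart here. Scn4b was at 17.9 to 21.6 RPM in the 4 libraries with values of 2.07 to 2.32 and at 4.10 to 13.2 RPM in the other 8. Cacna1h was at 21.7 to 33.3 RPM in those 4 and 9.84 to 20.4 RPM in the other 8, while Cacng5 was at 3.40 to 9.54 and 0.614 to 3.35 RPM and Scn3b at 252 to 345 and 120 to 249 RPM. Cacna1g, at 25.1 to 46.1 RPM in the 4 and 47.0 to 73.9 RPM in the 8, Cacna1i, at 27.5 to 42.7 and 50.7 to 67.6 RPM, and Scn7a, the sodium sensor, at 1.303 to 1.89 and 2.81 to 5.32 RPM, were lower in the 4. For these 7 of the 30 genes the 2 ranges do not overlap, 4 higher in the 4 libraries, beside 1.82% of all genes, and 3 lower, beside 2.2%. They are described without a test, because the libraries were set apart by measured marker values, and the 4 are 2 aged EE and 2 young SH libraries. Cacng3 did not follow the markers, with 3.21 to 32.6 RPM in the 4 libraries and 3.09 to 21.1 RPM in the other 8, nor did Scn9a, with 6.14 to 58.7 and 11.2 to 49.0 RPM.

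With the dorsal minus ventral value as a covariate, the interaction was 0.77 (SE 0.51) for Scn4b, 0.74 (SE 0.73) for Cacng5, -0.31 (SE 0.36) for Cacna1g and -0.40 (SE 0.41) for Cacna1i. Cacna1h had an interaction of 1.06 (SE 0.44, limma adjusted p = 0.867). High values of the covariate fell only in aged EE and young SH libraries, where library 2 was low (0.12 and -0.75). Its part therefore cannot be fully told apart from housing by age in this design. In aged EE against aged SH, 0 of 30 genes had an unadjusted p under 0.05 in that fit, beside 4.81% of all genes, where 8.87% had one without the covariate.

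**Figure D4:**
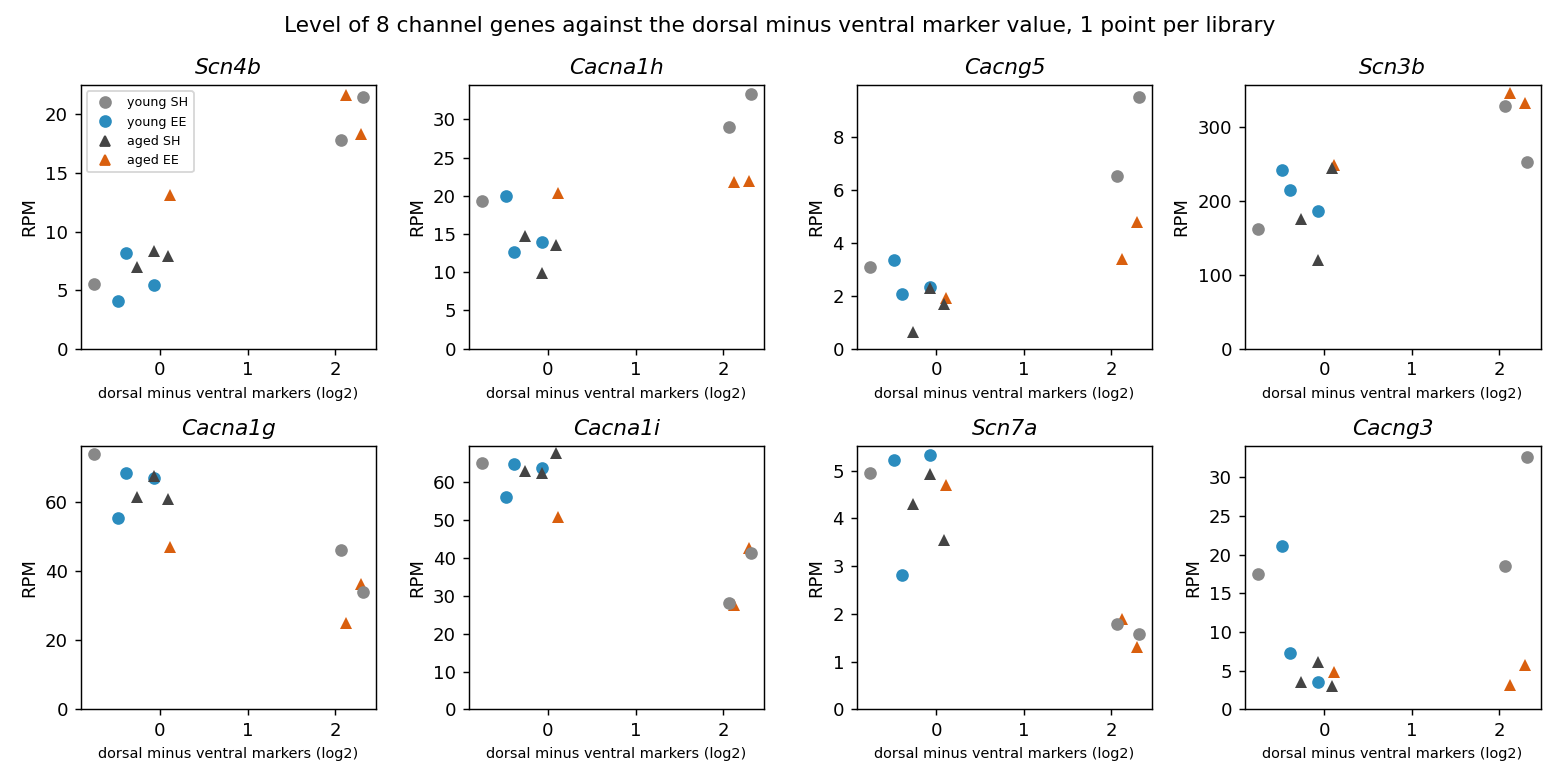
Level of 8 channel genes in RPM against the dorsal minus ventral marker value on a log2 scale, 1 point per library, with circles for young and triangles for aged mice and colours for the 4 groups. The 4 libraries at 2.07 to 2.32 are aged EE 1 and 3 and young SH 1 and 3, and they are highest in Scn4b, Cacna1h, Cacng5 and Scn3b and lowest in Cacna1g, Cacna1i and Scn7a, whereas Cacng3 shows no such order.

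Genes that act with these channels were examined in 4 lists, of which 12 partners of sodium channels, 21 partners of calcium channels, 23 genes of calcium stores and extrusion and 10 genes of the sodium leak channel and sodium pump were tested. None passed the adjusted threshold with limma in any of the 7 comparisons. In aged SH against young SH, 6 genes of these lists were higher and 4 lower at an unadjusted p under 0.05, beside 8.76% and 10.5% of all genes. Cntn1, an axonal adhesion protein that binds sodium channels, was at 216, 216 and 254 RPM in young SH and 310, 320 and 330 RPM in aged SH, with a log2 fold change of 0.49 (SE 0.14, limma adjusted p = 0.111). The groups did not overlap.

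Calm2, a calmodulin gene, whose product binds calcium and regulates calcium channels, varied from 804 to 7902 RPM. It was low in aged SH libraries 1 and 3 (804 and 1342 RPM) and in young SH library 2 (1876 RPM), and its log2 fold change in aged EE against aged SH was 2.09 (SE 0.60, limma adjusted p = 0.522). In the store list, Atp2a2, the pump that fills the endoplasmic reticulum, had an interaction of -0.61 (SE 0.20, limma adjusted p = 0.289), and Atp2b1, a calcium pump of the plasma membrane, of 0.87 (SE 0.29, limma adjusted p = 0.294).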

How the data were processed

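Hippocampal RNA was profiled by SAGE-Seq in 12 libraries, 3 per group. The authors mapped tags to RefSeq transcripts (mm9), and the deposited signal of each library is its tag count divided by a TMM-like factor of edgeR. Whole reads were recovered from the steps of these values, with 100% of the low values whole within 0.1. The 12 deposited tables repeat the same library columns, and 1 was read. Their ratio and p-value columns hold the study's own comparisons and were not used.

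For each gene name the row with the highest summed signal was kept. Genes were filtered with filterByExpr at a minimum count of 10 (edgeR 4.0.16, R 4.3.3), leaving 13138. log2 values of scaled reads plus 2 were fitted with limma-trend (limma 3.58.1) over all 12 libraries in 7 comparisons, with Benjamini-Hochberg adjustment over all genes and a threshold of 0.1. The fit was tested on simulated counts drawn independently for each gene and library. They did not hold the marker differences between libraries seen here. The study's own analysis used 8 libraries, tried here as an alternative beside other tests (DESeq2 1.42.0), filters, pseudocounts, scalings, a replicate block and leaving out each library.

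Values in every library were given for the highest gene of each class, for the 3 smallest unadjusted p of each comparison and for genes past the threshold, and from each partner list at most the 2 smallest p of a comparison were named. The channel genes, lists and tests were chosen with earlier results of these data known. Of the 39 genes, 24 have 1 row and 7 have rows that differ. Some genes of the set and of the lists are not reported here.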

Additional observations from a re-analysis of the deposited data

Results flagged for a closer look

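The age effect on Cacna1h had opposite signs in the 2 housings. It was -1.07 in SH, where every aged library lay below every young one, and 0.48 in EE, where every aged library lay above every young one. The difference between them was 1.551 on the log2 scale (SE 0.353, limma adjusted p = 0.255) and did not pass the threshold. With the dorsal minus ventral marker value as a covariate it was 1.06 (SE 0.44, limma adjusted p = 0.867). The high values of that covariate fell only in aged EE and young SH libraries. The part of the dorsal to ventral makeup in this difference therefore cannot be fully told apart from housing by age, and it was not tested otherwise.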

How the results depend on the processing

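In aged SH against young SH, where 3 channel genes passed, 1 passed with no filter, 1 with only the groups compared in the fit, 1 with the replicate block, 0 with the 2 libraries per group that the study used, 0 at a threshold of 0.05 and 0 with the dorsal minus ventral covariate. Leaving out each library in turn gave 0 to 5, with 5 without young SH library 2, 3 without young EE library 1 or 2 and 0 in the other 9 fits. In the same comparison 369 of all genes passed, against 161 with no filter, 123 with the replicate block, 972 with edgeR's likelihood ratio test, 1145 with DESeq2, 354 with edgeR's quasi-likelihood test, and 0 to 1170 without 1 library. DESeq2 called 1 channel gene in aged EE against young EE, 3 in housing by age and 1 for age over both housings. edgeR's likelihood ratio test called 2 in housing by age and 1 for age over both housings. Leaving out 1 library gave 0 to 1 in young EE against young SH, 0 to 5 in housing by age and 0 to 2 for age. In aged EE against aged SH and for housing over both ages, 0 passed in every fit. A fit of only the groups compared was not run for housing by age and the averages over age or housing. Log2 fold changes were followed over these settings only for the 3 smallest unadjusted p of each comparison, and none of these changed sign. Other fold changes given above were not followed. Over the values followed, 490 were unchanged, while 41 fold changes lost the threshold and 15 gained it. Unchanged means the same side of the threshold for a fold change. The 490 also hold levels of the highest gene of each class under other scalings, which moved by less than their SD. Scaling by library totals moved the median of all genes by -0.10 in aged SH against young SH. Replicate numbers did not pair libraries. Of 18 same-numbered pairs, 5 had a correlation of deviations over 0.1 (-0.23 to 0.21), and 3 of 12 libraries correlated best with their own number. The replicate block changed no other count of called channel genes. Low counts limit Cacng4, Cacng5 and Cacng7, and the 9 genes below the filter were not tested.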

Other observations

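Cacnb1, a β subunit gene of calcium channels, has a row that ends farther downstream in the gene than the row with most reads. This downstream row ends at the stop codon, and the gene model ran on for 1393 bases. Its predicted tag lies before the stop codon. Since rows with the same 3′ end can differ in reads, its level cannot be read as that of this tag alone. The downstream row held 915 reads, 36.3% of the 2519 of the row with most reads. It was chosen after its values were seen. It was at 10.2, 10.8 and 9.55 RPM in aged EE and 5.22, 8.19 and 5.53 RPM in aged SH, and at 9.59, 9.87 and 11.7 RPM in young EE and 8.88, 6.74 and 7.12 RPM in young SH. The groups did not overlap at either age, with every EE library above every SH library. How many of all rows do so was not counted. In a limma fit over every transcript row, the downstream row had a log2 fold change for housing over both ages of 0.57 (SE 0.15, limma adjusted p = 0.782), which did not pass. The row with most reads had one of 0.14 (SE 0.14) in the same fit.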
